A study of Mus musculus with 28 samples.

Results

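The regions described here are stretches of chromatin that were called open in activated satellite cells and had no peak in quiescent satellite cells, in the starting fibroblasts or in any MEF14 fibroblast culture given doxycycline to switch on MyoD. They are called members below. They were chosen by the peak lists themselves. Peaks of 27 ATAC-seq lists sharing 1 bp or more were joined, which gave 255567 regions, and a call is any peak of a library inside a region. ATAC-seq cuts accessible DNA with a transposase and sequences the pieces. A member was called in both activated satellite cell libraries and in none of 20 others, namely 2 quiescent, 2 day 0 and 16 doxycycline libraries. In all 694 regions met this rule, which is 0.272% of all regions, 1.56% of the 44379 regions called in both activated libraries and 8.93% of the 7771 activated-only regions (both activated libraries, no quiescent or day 0 library). The other 7077 activated-only regions had a peak in at least 1 doxycycline library and are called opened regions below.

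Satellite cells are the stem cells of skeletal muscle. At rest they are quiescent and marked by the transcription factor Pax7, and after injury or in culture they become activated, divide and switch on the myogenic factor MyoD. MyoD binds E-box sequences, can open closed chromatin and can turn fibroblasts into muscle cells. Forskolin activates adenylyl cyclase, RepSox inhibits the TGF-beta type I receptor, and CHIR99021 inhibits the kinase GSK3 and thereby stabilises beta-catenin.

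The study has 14 groups of 2 libraries each. The activated satellite cells (activated_SCs) were set against quiescent satellite cells (quiescent_SCs), and per the labels' protocols primary satellite cells came from adult Pax7-nGFP mice of 10 to 12 weeks. How the activated cells were activated is not given by their sample labels. The MEF14 cells were embryonic fibroblasts of day E13.5 that all carried Rosa-rtTA, an inducible MyoD gene in the Col1a1 locus (Col1a1-tetO-MyoD) and the Pax7-nGFP reporter, untreated ones included. Dox+FRG cells received doxycycline at 2 µg/ml with forskolin at 5 µM, RepSox at 5 µM and CHIR99021 at 3 µM, for 2, 4, 6 or 8 days, with further Dox+FRG libraries labelled GFP at days 8 and 10. Dox cells received doxycycline without these molecules for 4 or 8 days, both media holding basic FGF, FRG cells at day 8 are read as having received the molecules without doxycycline, and day 0 cells neither. FRG is read here as forskolin, RepSox and the GSK3 inhibitor CHIR99021, and the labels do not spell it out. A further fibroblast line, MEF10, has a day 6 group labelled MyoD+FRG and one labelled MN+FRG. The labels define neither MN nor how MyoD was supplied to MEF10 cells.

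Peak lists give no read numbers, so sequencing depth is unknown and a region without a peak is one that was not called, not one shown to be closed. The lists merged here held 37301 to 134997 peaks, the longest being those of FRG cells (134997 and 133267) and Dox day 8 cells (108663 and 130916). The activated lists held 49072 peaks in replicate 1 and 61400 in replicate 2. The list of MEF10 MyoD+FRG replicate 2 stood apart, with a most common peak width of 500 bp and peaks of up to 202465 bp, and was kept out of the merge. Its values are given apart from the others. Nothing ties the 2 libraries of a group to separate animals or cultures, so spreads over them may be technical. The identity of the activated cells was not checked against marker genes, because no gene positions in the mm9 genome of these lists were used here, and for the same reason the regions are given by position alone.

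The members formed the low end of a spread of calls that had several high points. Of the activated-only regions, 694 were called in 0 of the 16 doxycycline libraries, 326 in 1, 304 in 2 and 267 in 3. The number was higher again at 4 libraries, with 529 regions, of which 326 were called in the 4 Dox libraries and in no Dox+FRG library. The largest number, 842, was called in 10 libraries, and 489 regions were called in all 16. Since these calls chose the members, the counts describe them and are not tested.

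**Figure D1:**
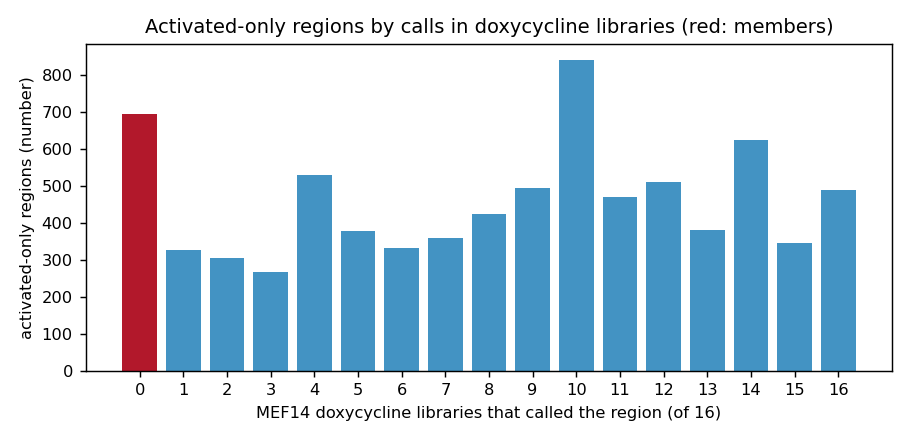
Number of activated-only regions (y axis) by the number of MEF14 doxycycline libraries that called them (x axis, 0 to 16). The 694 members, in red, stand at 0, above the 326, 304 and 267 regions at 1, 2 and 3 libraries, and 842 regions stand at 10.

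Regions that missed the rule by a single library differed in number with the library. Besides the 326 regions called in 1 doxycycline library, 105 regions missed it by 1 quiescent library and 53 by 1 day 0 library. These numbers come from 16 doxycycline, 2 quiescent and 2 day 0 libraries. Most of the 105 came through quiescent replicate 1, which held 57859 peaks against 37910 in replicate 2. The rule gave 796 regions without quiescent replicate 1 and 697 without quiescent replicate 2. Of the 326, 225 (69.0%) were called by a Dox library and 101 by a Dox+FRG library. Dox day 8 replicate 2, with the longest doxycycline list at 130916 peaks, alone accounted for 141 of them (43.3%), and Dox day 4 replicate 2 for 43. The 4 libraries labelled GFP accounted for 28, of which 24 came from day 10. Dox+FRG day 8 replicate 2 accounted for 0. The regions at this edge thus came mostly from the long lists of cells given doxycycline without the small molecules. On the side of the satellite cells, 494 regions were called in activated replicate 1 alone and 4066 in activated replicate 2 alone, with no call in the 20 libraries that the rule requires to be silent. The members were therefore 13.2% of the 5254 regions called in either activated library and in none of those 20.

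The calls of libraries outside the rule did not choose the members. All of these libraries but MyoD+FRG replicate 2 were part of the merge, so their peaks could widen or join regions. What part this has in their shares was not tested. They too are of fibroblast cultures, as are the day 0 and doxycycline libraries of the rule. Few members were called in cells given the small molecules without doxycycline. FRG day 8 cells called 55 of 694 members in replicate 1 and 56 in replicate 2, or 8.0% ± 0.102 (SD, n = 2), against 20.8% ± 0.26 of opened regions. Both values lie below the share of all merged regions, 52.1% in replicate 1 and 51.5% in replicate 2, and that background includes regions found in FRG cells alone. Among the 195269 regions called by at least 1 library of the rule, FRG cells called 47.0% ± 0.347. In both FRG libraries 44 members were called, and 67 in either. The share depends on the lists: it was 3.60% with all lists drawn down to equal length, and 3.21% when activated replicate 2 alone stood for the activated cells.

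MEF10 MN+FRG cells gave members a like low share. They called 52 members in replicate 1 and 55 in replicate 2, or 7.71% ± 0.306, against 34.9% ± 0.520 of opened regions (SD, n = 2). Over all merged regions they called 35.8% in replicate 1 and 36.1% in replicate 2. Among the regions called by at least 1 library of the rule, they called 40.8% ± 0.0442. Members thus stood below opened regions and both of these shares. With activated replicate 2 alone standing for the activated cells the share of members was 2.74%.

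MEF10 MyoD+FRG cells, fibroblasts of another line labelled with MyoD, called no member in replicate 1. The count was 0 of 694, against 2569 of 7077 opened regions (36.3%) and 14.4% of all merged regions. For counting error alone, 0 of 694 allows a share of up to 0.432% (upper bound of the exact 95% Clopper-Pearson interval 0.53%). Both limits take the regions of 1 library as independent and do not cover differences between libraries. The list of replicate 1 is the shortest, with 37301 peaks. The share went past both limits, to 1.69%, with all lists drawn down to equal length, and to 1.26% with a rule that left out both Dox groups. The broad list of replicate 2 overlapped 71 members (10.2%), against 5425 opened regions (76.7%) and 36.6% of all merged regions. In each of these 6 libraries the share of members was below that of opened regions. The difference was larger than the spread between the 2 libraries of a group where there is one, a spread that may be technical. Members were chosen for no peak and opened regions for at least 1 peak in other fibroblast libraries, so this direction is not independent of the choice. No p-value is given for these shares, since the set was chosen with earlier results of these data known.

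**Figure D2:**
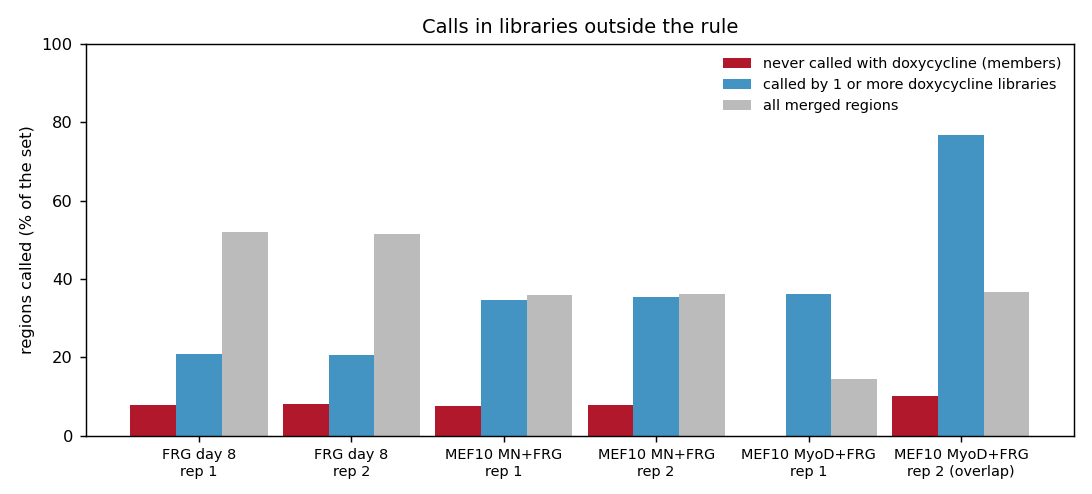
Share of regions called (y axis, %) in the 6 libraries that the rule does not use (x axis), for the 694 members (red), the 7077 opened regions (blue) and all 255567 merged regions (grey). Members stand between 0% and 10.2%, below opened regions and below all regions in each library.

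The merged span had a median of 219 bp in members and 302 bp in opened regions, whose span includes the doxycycline peaks. The part of the span in these shares was not tested. When a call needed at least 50% of the shorter peak to be shared with an activated satellite cell peak, the 694 members were called at 6.41% in FRG and 6.70% in MN+FRG cells on average, and opened regions at 15.7% and 30.9%. MEF10 MyoD+FRG replicate 1 then called 0 members and 33.4% of opened regions.

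The share called outside the rule differed with the number of doxycycline libraries. In MEF10 MyoD+FRG replicate 1 it was 0% in members, 0.307% in regions of 1 library, 4.16% at 4, 21.2% at 8, 55.1% at 12 and 86.1% in regions of all 16. In MN+FRG cells the mean share was 7.71% in members, 15.6% at 1 library, 21.6% at 4, 27.2% at 8, 41.5% at 12 and 79.2% at 16. In FRG cells it was 8.0% in members, 15.6% at 1 library, 17.8% at 4, 18.9% at 8, 21.5% at 12 and 38.0% at 16. None of the 3 courses rose at every step. From 12 to 13 libraries the share was lower at 13 in all 3, at 53.8% in MyoD+FRG, 37.9% in MN+FRG and 19.7% in FRG cells, and FRG cells also had 24.2% at 3 libraries and 13.2% at 10. Members thus had the lowest share in all 3 kinds of cells, and regions of 1 library the next lowest in MyoD+FRG and MN+FRG cells. In FRG cells the regions of 10 libraries came next after the members. The median merged span also rose with this number, from 219 bp in members and 231 bp at 1 library to 501 bp at 16. It was 270 bp at 2 to 8 libraries and 338 bp at 9 to 15. A longer span has more room for a call, and what part this has in the courses was not tested.

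**Figure D3:**
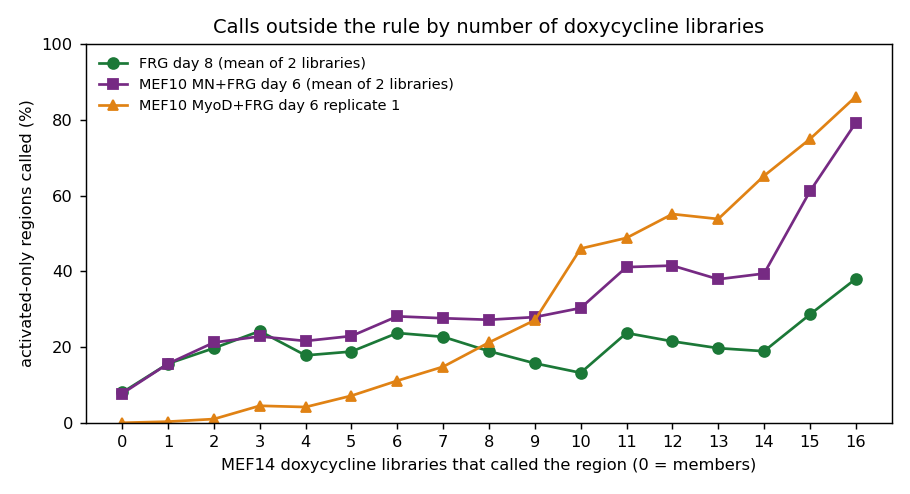
Share of activated-only regions called (y axis, %) by the number of MEF14 doxycycline libraries that called them (x axis, members at 0), in FRG cells (circles), MEF10 MN+FRG cells (squares) and MEF10 MyoD+FRG replicate 1 (triangles). The triangles go from 0% in members to 86.1% at 16 libraries, while the circles stay between 8.0% and 38.0%.

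The sets just outside the rule were set beside the members in the same cells. Regions missing it by 1 day 0 library were called at 38.7% ± 1.33 in FRG and 28.3% in MN+FRG cells, and those missing it by 1 quiescent library at 19.5% ± 0.673 and 12.9% ± 2.02 (SD, n = 2 each). Regions of activated replicate 1 alone were called at 4.05% ± 0.573 in FRG and 2.94% ± 0.143 in MN+FRG cells, and those of replicate 2 alone at 2.40% ± 0.226 and 1.89% ± 0.0696. Members, at 8.0% and 7.71%, thus stood above the regions seen in 1 activated library and below the regions that missed the rule through a quiescent, day 0 or doxycycline library.

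Quiescent-only regions without a doxycycline call are the mirror image of the members. There were 2628 of them, called in both quiescent libraries and in no activated, day 0 or doxycycline library. FRG cells called 8.0% ± 0.102 of members and 24.5% ± 0.323 of these quiescent-only regions, both below their 51.8% ± 0.439 over all merged regions. MN+FRG cells called 7.49% and 7.93% of members in replicates 1 and 2, and 7.08% and 7.31% of the quiescent-only regions, and MEF10 MyoD+FRG replicate 1 called 0 of either. The shares of the 2 sets thus lay apart in FRG day 8 cells and close together in MN+FRG cells. The 2 sets were chosen by different libraries of unlike length, and the part of this in the difference was not tested.

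Among the members themselves, 587 (84.6%) were called in none of the 5 merged libraries outside the rule, against 39.8% of opened regions and 32.3% of all merged regions. Within the 27 merged lists these 587 were called in activated satellite cells alone, and 51 of them (8.69%) were overlapped by a peak of the broad MyoD+FRG list. The other 107 (15.4%) were called in at least 1 of the 5, against 60.2% of opened regions and 67.7% of all merged regions, and 39 (5.62%) in exactly 1, against 19.7% of opened regions and 15.5% of all. FRG and MN+FRG calls fell in part on the same members. Of the 44 members called in both FRG libraries, 26 (59.1%) were called in an MN+FRG library, against 40 of 627 (6.38%) of the members with no FRG call. Among opened regions the same shares were 81.4% and 29.8%. Members called in a single FRG library are in neither set. Over all merged regions, 115993 were called in both FRG libraries, of which 37279 had no MN+FRG call, against 18 of the 44 members. In all, 31 members (4.47%) were called in both kinds of cells, against 18.2% of opened regions and 33.0% of all merged regions. In FRG cells without MN+FRG 36 members (5.19%) were called, against 5.03% of opened regions and 25.1% of all, and in MN+FRG cells without FRG 40 members (5.76%), against 22.9% and 8.23%. Called in all 4 of these libraries were 15 members (2.16%), against 12.2% of opened regions and 25.3% of all. The broad MyoD+FRG list overlapped 19.7% of the 71 members with an MN+FRG call and 22.4% of the 67 with an FRG call.

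The activated satellite cell peaks in members were mostly of the standard width. The authors' lists hold 1 most common width each, 182 bp in activated replicate 1 and 173 bp in replicate 2, beside a minority of wider peaks. In members 10 peaks (1.44%) were wider than this in replicate 1 and 25 (3.60%) in replicate 2. Opened regions had 2.53% and 4.24% in the same order, and all regions called in both activated libraries 8.19% and 10.6%. Regions of 1 doxycycline library had 1.23% in each replicate, and those of 2 to 8 libraries 1.5% and 2.58%. In replicate 2 members were thus above both of these last sets. Both peaks were wider in 3 members (0.432%), against 118 opened regions (1.67%) and 5.78% of all regions called in both activated libraries. By number of doxycycline calls the share was 0.432% in members, 0% in the 326 regions of 1 library, 0.732% at 2 to 8 libraries, 2.15% at 9 to 15 and 4.09% at 16. A wider activated peak has more room to overlap a peak of the libraries that must be silent, and the part of this in these shares was not tested. Width is not a measured strength, and the lists give no other.

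The peak centres of the 2 activated libraries lay about as close in members as elsewhere, which the choice of regions in part forces. With 1 peak in each library, the peak centres lay a median of 37.5 bp apart in 693 members (quartiles 16.5 and 71.5 bp), against 33.5 bp in opened regions and 35.5 bp in all regions called in both libraries. The shared stretch had a median of 143 bp in members and 147 bp in opened regions. The peaks of the pair did not overlap each other directly in 1 member, where a peak of another library joined them, and in 170 opened regions. In a member no doxycycline, day 0 or quiescent peak can join the pair. With 1 peak in each library, the pair must thus overlap directly unless a library outside the rule joins it. This limits the distance between centres. In opened regions doxycycline peaks can also join a pair. These values therefore describe the sets and do not show how well the 2 libraries agree.

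The 3 members with a wider peak in both activated libraries are those with the largest smaller width of the 2 activated peaks. Some members had a wider peak in 1 library alone, such as chr1:65034892-65035832 with 941 bp in replicate 1. The region chr14:53401922-53402788 had peaks of 858 and 840 bp in activated replicates 1 and 2, and its nearest doxycycline peak lay 27604 bp away. The region chr8:99072715-99073602 had peaks of 729 and 888 bp, with the nearest doxycycline peak 89370 bp away, and was also called in MN+FRG replicate 2. The region chr15:86933027-86933834 had peaks of 796 and 696 bp, with the nearest doxycycline peak at 27849 bp. All 3 stood far from other open chromatin of the same cells: the nearest other region called in both activated libraries lay 248641, 310577 and 520673 bp away, against a median of 11481 bp over all members. Next by this measure came members tied at a smaller width of 182 bp, wide in replicate 2 alone. The 3 named are those with the wider peaks. They were chr14:53752924-53754743 with a peak of 1812 bp, chr13:34295207-34296454 with 1248 bp and chr12:112501836-112502993 with 1158 bp, each beside a peak of 182 bp in replicate 1.

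Few members lay directly beside a doxycycline peak. These distances are measured to peaks that the rule used and are a description. They are given for members alone, so whether the shares are low or high for regions without a doxycycline call is not shown. The nearest peak of any of the 16 doxycycline libraries lay a median of 4151 bp away (quartiles 1688 and 10332 bp), counted so that adjacent bases are 1 bp apart. In all 19 members had one within 100 bp and 95 (13.7%) within 1000 bp, while 180 (25.9%) had none within 10000 bp. The share within 1000 bp moved with the rule, to 24.4% with calls by the stricter overlap, 8.28% with peaks widened by 100 bp on each side, 7.88% in a rule without Dox day 8 cells, 5.28% without both Dox groups and 0% of the 43 regions left by peaks wider than the most common width. The distance to a single group was longer, at a median of 5939 bp for Dox day 8 cells, 7238 bp for Dox day 4 cells, 9629 bp for day 10 GFP cells and 13493 bp for day 8 GFP cells. The other Dox+FRG groups had medians of 11021 bp at day 2, 10424 bp at day 4, 10808 bp at day 6 and 10876 bp at day 8. These groups differed in the number of peaks, from 90469 in day 8 GFP cells to 239579 in Dox day 8 cells, and the part of this in the distances was not tested. Day 0 peaks lay a median of 10102 bp away and quiescent satellite cell peaks 12111 bp.

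The 3 members nearest to the threshold of overlap were almost touching a doxycycline peak. The region chr6:112927369-112927600 lay 1 bp from a peak of day 10 GFP replicate 1 and was called in both FRG libraries. The region chr17:85280527-85280742 lay 5 bp from a peak of Dox+FRG day 8 replicate 1 and was called in no library outside the rule. The region chr16:10782173-10782378 lay 10 bp from a peak of Dox day 8 replicate 2 and was called in MN+FRG replicate 2. At the other end, the members farthest from any doxycycline peak were chrX:31074911-31075213 at 457094 bp, chr4:60552072-60552421 at 291764 bp, chr9:36210669-36211412 at 283664 bp and chr7:5357886-5358081 at 280109 bp. Of these 4, the chromosome 9 region was called outside the rule, in both FRG libraries and in MN+FRG replicate 2, and it had a peak of 719 bp in activated replicate 2.

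**Figure D4:**
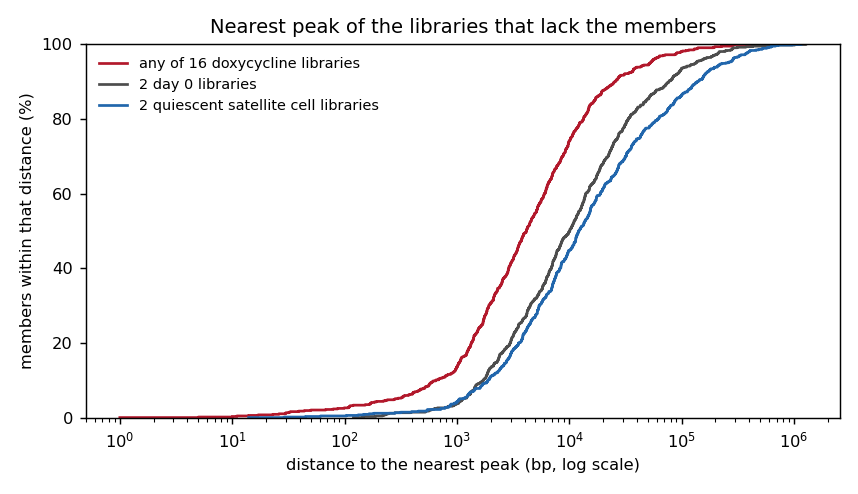
Share of the 694 members (y axis, %) with a peak within a given distance (x axis, bp, log scale), for the 16 doxycycline libraries (red), the 2 day 0 libraries (grey) and the 2 quiescent libraries (blue). The curves cross 50% near 4151, 10102 and 12111 bp, and the red curve reaches 13.7% at 1000 bp.

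Members called outside the rule and the others had a doxycycline peak close by at like shares. Of the 107 members called in FRG, MN+FRG or both, 13 (12.1%) lay within 1000 bp of a doxycycline peak, against 82 of 587 (14.0%) among those called in none of the 5 merged libraries outside the rule. Median distances were 3471 and 4255 bp in the same order. A peak wider than the standard width in either activated library was found in 4.67% of the 107 and 4.60% of the 587.

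Members lay on every chromosome of the lists, and their median distance to chromatin called open in every library was longer than that of opened regions. The nearest region called in all 27 libraries lay a median of 68305 bp from members (quartiles 22290 and 170138 bp) and 43934 bp from opened regions (15912 and 117394 bp). Distances to other activated-only regions were close, with medians of 64396 bp from members and 61597 bp from opened regions, and 93 members (13.4%) and 14.4% of opened regions had one within 10000 bp. The nearest region called in both activated libraries lay 11481 bp from members and 10214 bp from opened regions in the median. The quartiles overlap widely in each case, and none of these differences was tested.

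Most members had no other member close by. The nearest other member lay a median of 987927 bp away, and 20 members had one within 10000 bp and 94 within 100000 bp. For comparison, 93 members had any other activated-only region within 10000 bp, and members are 8.93% of activated-only regions. Whether members lie closer together than other activated-only regions was not tested. In windows of 100 kb, 631 windows held 1 member, 30 held 2 and 1 held 3. That window lies on chromosome 7 from 138200001 to 138300000 (mm9), and its members are chr7:138201521-138201731, chr7:138209861-138210070 and chr7:138226047-138226228. They had the standard widths in both activated libraries, lay 1743, 1793 and 6321 bp from the nearest doxycycline peak, and were called in no library outside the rule. All 3 activated-only regions of this window were members, and it held 4 regions called in both activated libraries among 10 merged regions. Of the windows with 2 members, the first along the genome lie on chromosome 2. The window from 133500001 to 133600000 held chr2:133534768-133535039 and chr2:133575682-133575863, and the window from 152300001 to 152400000 held chr2:152329855-152330053 and chr2:152361737-152361954. These 4 also had standard widths and no call outside the rule, and in both windows the members were the only activated-only regions.

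By chromosome, the share of activated-only regions that were members lay between 6.46% on chromosome 13 and 11.7% on chromosome 17, around the 8.93% over the genome. Chromosome 7 held most members, 56 of 562 activated-only regions (9.96%), followed by chromosomes 2 and 5 with 53 each. In the order 7, 2 and 5, these chromosomes held 8.07%, 7.64% and 7.64% of members and 5.34%, 7.82% and 6.03% of all merged regions. The X chromosome held 14 of 195 (7.18%). Every chromosome of the lists, from 1 to 19 and X, held at least 11 members.

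The 587 members that, among the 27 merged lists, were called in activated satellite cells alone were a small part of the regions that only these lists held. Of 4931 regions called in activated libraries and in no other of the 27, 587 (11.9%) were called in both, 458 in replicate 1 alone and 3886 in replicate 2 alone. For quiescent satellite cells this share was 1861 of 5622 (33.1%), and for day 0 fibroblasts 1619 of 4784 (33.8%). It was 51% for FRG cells, 39.0% for MN+FRG cells and 32.4% for Dox day 8 cells. In Dox+FRG cells it lay between 1.98% at day 2 and 19.7% in day 10 GFP cells, groups that have near relatives among the other lists. The 587 regions are 1.32% of all regions called in both activated libraries, against 5.09% for quiescent satellite cells and 2.79% for day 0 fibroblasts. None of these differences was tested.

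**Figure D5:**
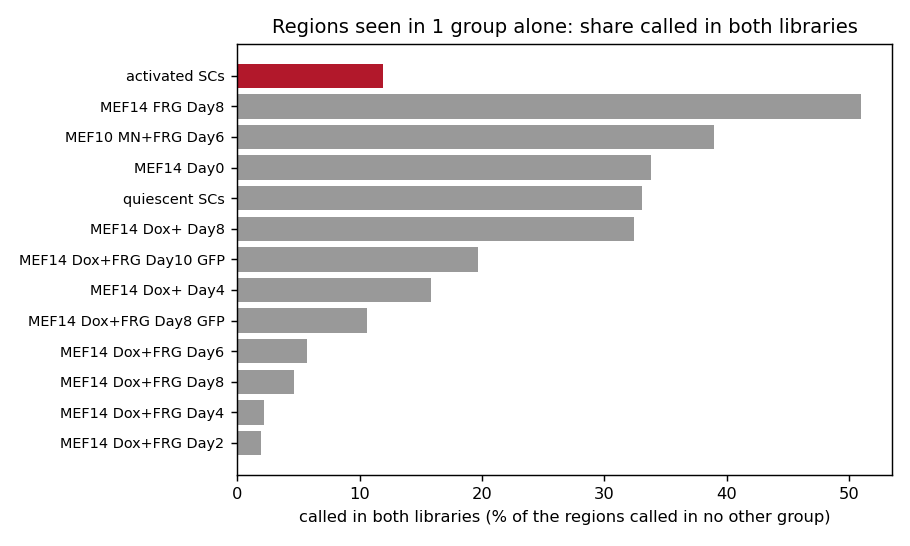
For each group with 2 merged libraries (rows), the share of the regions called in no other group that both of its libraries called (x axis, %). Activated satellite cells, in red, stand at 11.9%, between day 8 GFP cells at 10.6% and Dox day 4 cells at 15.8%, and FRG cells at 51%.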

How the data were processed

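The deposited files hold other values than counts or signal: each is a list of peak positions (chromosome, start, end) in 1 library, without a score. BWA, HOMER and the mm9 genome are named in the submitters' processing notes, while tool versions, the peak threshold, read filters and a shift of reads for the transposase are, in the sources used here, not given. The labels' protocols give 60000 cells per reaction and 13 PCR cycles. Lists were merged and compared in Python 3.11.15 with numpy 2.4.6, pandas 2.3.3 and scipy 1.17.1, on all chromosomes, with starts printed counted from 1. The merging and calling steps were tested on simulated lists. Intervals and floors cover counting error only. The members and sets were chosen with earlier results of these data known, so shares are described beside all regions and no p-value is given. Named regions include the 6 members with the largest smaller activated peak width, where ties at 182 bp went by the larger width. The members of the 3 windows of 100 kb with most members are named too. So are the 4 farthest from and the 3 nearest to a doxycycline peak, and any called in all 5 libraries outside the rule, of which there were 0. Gene context, gene lists, markers and motifs had been planned and need mm9 annotation or sequence, which was not used here.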

Additional observations from a re-analysis of the deposited data

Results flagged for a closer look

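The list of MEF10 MyoD+FRG replicate 2, which was kept out of the merge, overlapped 10.2% of members, while replicate 1 of the same group called 0 of 694. Its peaks are broad, and what part their width has in this was not tested.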

How the results depend on the processing

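The number of members, 694, stayed within 1.5 times of itself under a stricter overlap (700, of which 600 are the same regions), peaks widened by 100 bp on each side (688), equal list lengths (652), 28 lists merged (667) and autosomes alone (680). The draw to equal lengths left 37301 peaks in each list, the activated lists included, so regions could both leave and enter the set. How many of its 652 regions are among the 694 was not counted. The number of members was 43 with only peaks wider than the most common width, and, in alternatives chosen after seeing the data, 977 in a rule without Dox day 8 cells and 1591 without both Dox groups. Leaving out each library of the rule gave 694 to 4760: 4760 without activated replicate 1, 1188 without activated replicate 2, and at most 835 without any other. The mean FRG share of members, 8.0%, was 7.0% with the stricter overlap, 7.70% with widened peaks, 8.14% with wider peaks only, 3.60% with equal list lengths, 11.2% without Dox day 8 cells and 11.6% without both Dox groups. The mean MN+FRG share, 7.71%, was 7.14%, 6.98% with wider peaks only, 5.60% with equal list lengths, 8.02% with 28 lists, and 12.0% and 13.45% without Dox day 8 cells and without both Dox groups. Left-out libraries gave 3.21% to 9.64% for FRG, 2.74% to 9.70% for MN+FRG and 0% to 0.139% for MyoD+FRG replicate 1. The lowest FRG and MN+FRG values are those without activated replicate 1, and leaving out any library but the activated ones gave at least 7.73% and 7.39%. MyoD+FRG replicate 1 was at 1.69% with equal list lengths, where a random draw also removes doxycycline peaks, and at 1.26% without both Dox groups. The share of members within 1000 bp of a doxycycline peak, 13.7%, was 24.4% with the stricter overlap, 8.28% with widened peaks, 0% with wider peaks only, and 7.88% and 5.28% without Dox day 8 cells and without both Dox groups. The distance to gene starts was not run for want of mm9 annotation. No paired analysis was run, as no result comes from a test. Depth is unknown, so a missing peak cannot be told apart from a shallow library.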
